A study of Oryza sativa Japonica Group with 4 samples.

Results

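The CESA genes of rice code for cellulose synthases, and 9 of them, OsCESA1 to OsCESA9, were followed here through 4 RNA sequencing libraries of seedling shoots. The members were fixed by locus identifier and not by their measured values, although earlier results of these data were known when they were chosen. All 9 were found among the 28491 genes listed in at least 1 library. The reference gene table carries a CESA name for each of the 9, on the same chromosome as the identifier. Above-ground parts of unstressed seedlings at the 4-leaf stage were sampled, from plants grown in soil in summer under 14 h of sunlight and 10 h of darkness. The groups were the wild type DongJin, a cultivar of Oryza sativa ssp. japonica, and a modd mutant of the POSTECH rice mutant library titled modd2, with 2 libraries each. By the series title, MODD acts against OsbZIP46, a transcription factor of abscisic acid signalling, by inactivating and breaking it down. No source used here gives the kind or site of the mutation, or tells whether replicates were separate plants, so p-values reflect the spread among these 4 libraries, possibly a technical one.

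Cellulose is made at the plasma membrane by rosette-shaped complexes that hold several different CESA proteins, each of which elongates a glucan chain from UDP-glucose. Growing cells lay down a thin primary wall with one set of CESA proteins, and xylem and fibre cells later lay down a thick secondary wall with another set. In rice, OsCESA4, OsCESA7 and OsCESA9 are the secondary wall genes, and loss of any of them gives the brittle culm phenotype. OsCESA1, OsCESA3, OsCESA5, OsCESA6 and OsCESA8 were taken as the primary wall genes, and OsCESA2 was placed in neither class.

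The libraries held 5334814 to 5393972 expected reads (RSEM's estimate of the reads belonging to each gene). The 9 CESA genes together took 11705 to 14186 of these, or 0.217 to 0.265% of a library. MODD (LOC_Os03g11550), the gene named by the mutant label, was at 36.9 and 46.6 FPKM (fragments scaled for transcript length and for the reads assigned in the library) in modd-labelled replicates 1 and 2 and at 21.0 and 21.3 FPKM in the wild type. It was thus higher in the libraries labelled as its mutant (log2 fold change 0.93 ± 0.146, SE, edgeR adjusted p = 0.0272). The mutant libraries are therefore called modd-labelled. Over the tested genes the wild type replicates differed from each other by more than the modd-labelled replicates did. On the leading principal component over the tested genes, with 60.2% of the variance, the modd-labelled libraries lay at -31.4 and -22.3, wild type replicate 1 at 9.38 and wild type replicate 2 at 44.3. The 4 leaf markers were all present, with summed levels of 2980 and 3473 FPKM in the modd-labelled libraries and 3641 and 4417 FPKM in the wild type. Among the 5 root markers, OsYSL15, LSI2 and OsNRT2.1 were missing from all 4 tables. The summed level of all 5 was 19.1 and 16.9 FPKM in the modd-labelled libraries and 15.4 and 11.7 FPKM in the wild type.

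All 9 CESA genes were transcribed in every library, and the primary wall genes dominated. Per transcript length, the summed level of the 5 primary wall genes was 4.26 to 4.9 times that of the 3 secondary wall genes. Averaged over the 4 libraries, the order of levels ran OsCESA1, OsCESA3, OsCESA8, OsCESA6, OsCESA5, OsCESA2, OsCESA4, OsCESA7 and OsCESA9. The highest mean was 128 FPKM, and OsCESA1 lay above 96.7% of tested genes. The lowest mean was 29.7 FPKM, and OsCESA9 still lay above 77.5% of tested genes. Levels differed without overlap of the 4 libraries at 3 steps of this order, from OsCESA3 to OsCESA8, from OsCESA8 to OsCESA6 and from OsCESA4 to OsCESA7. At the other 5 steps the ranges of neighbours overlapped, and OsCESA7 was above OsCESA9 in only 2 of the 4 libraries.

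**Figure D1:**
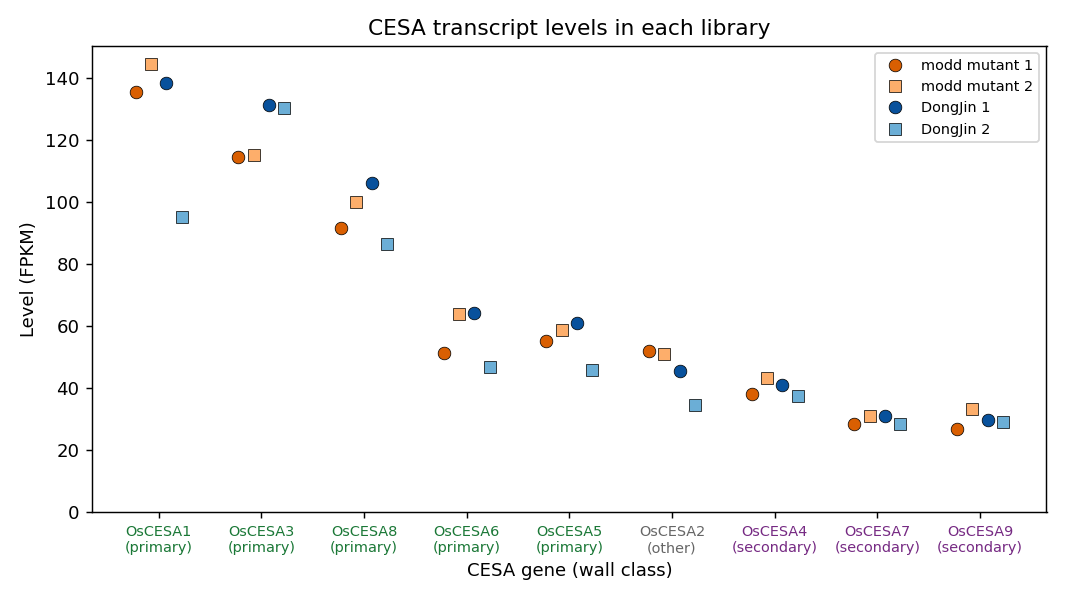
Level of each CESA gene in FPKM (vertical axis, linear from 0) in each of the 4 libraries, with genes ordered by their mean and coloured by wall class. The 5 primary wall genes lie to the left and the 3 secondary wall genes to the right, and wild type replicate 2 is the lowest library for 6 of the 9 genes.

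Among the primary wall genes, OsCESA1 (LOC_Os05g08370) and OsCESA3 (LOC_Os07g24190) were the most abundant. OsCESA1 was at 136 and 144 FPKM in modd-labelled replicates 1 and 2 and at 138 and 95.3 FPKM in wild type replicates 1 and 2. Its groups overlapped, because wild type replicate 1 lay between the modd-labelled libraries, and wild type replicate 2 was far below the other 3. OsCESA3 was at 115 and 115 FPKM in the modd-labelled libraries and at 131 and 130.3 FPKM in the wild type. Here the groups did not overlap and the libraries of each group lay close together, with SDs of 0.368 and 0.58 FPKM (n = 2 each), smaller than the counting error of 1.87 to 1.99% of the level. The ratio of OsCESA1 to OsCESA3 within a library was 1.18 and 1.26 in the modd-labelled libraries, 1.05 in wild type replicate 1 and 0.731 in wild type replicate 2. OsCESA1 was therefore the more abundant of the pair in 3 libraries and the less abundant in wild type replicate 2.

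The log2 fold change of OsCESA1, modd-labelled libraries over wild type, was 0.22 ± 0.155 (SE, n = 2 per group), with an edgeR adjusted p of 0.503. For OsCESA3 it was -0.21 ± 0.109 (SE), with an edgeR adjusted p of 0.358. Neither passed the threshold of 0.05. OsCESA3 was the only member with more than 1 transcript in the files. The length given for it, which RSEM weights over 3 transcripts, was 4067 and 4045 bases in the modd-labelled libraries and 4039 and 3978 bases in the wild type, so its transcript mix was not estimated as identical in all libraries.

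OsCESA8 (LOC_Os07g10770) was at 91.6 and 100.1 FPKM in the modd-labelled libraries and at 106 and 86.6 FPKM in the wild type. Both modd-labelled libraries lay between the wild type ones. OsCESA5 (LOC_Os03g62090) and OsCESA6 (LOC_Os07g14850) were present at levels similar to each other. OsCESA5 was at 55.1 and 58.6 FPKM in the modd-labelled libraries and at 61.0 and 45.8 FPKM in the wild type. OsCESA6 was at 51.4 and 64.0 FPKM in the modd-labelled libraries and at 64.2 and 46.8 FPKM in the wild type. For these 3 genes wild type replicate 1 was the highest library and wild type replicate 2 the lowest, so the whole range of each lay within the wild type. The log2 fold changes were 0.05 for OsCESA5, 0.02 for OsCESA6 and -0.05 for OsCESA8, with edgeR adjusted p of 0.873, 0.966 and 0.882.

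OsCESA2 (LOC_Os03g59340) had the largest fold change of the family with all 4 libraries, but not without wild type replicate 2, where it was 0.16 on the log2 scale and that of OsCESA3 was -0.20. The level of OsCESA2 was 52.1 and 50.9 FPKM in the modd-labelled libraries and 45.7 and 34.6 FPKM in the wild type, and the groups did not overlap. The log2 fold change was 0.32 ± 0.125 (SE, n = 2 per group, 1.25-fold), with a 95% interval from 0.04 to 0.60. Its edgeR adjusted p was 0.238, so no difference was called. The unadjusted p was 0.0281, and 16.8% of all tested genes had an unadjusted p under 0.05. The order of the libraries for OsCESA2, from modd-labelled replicate 1 down to wild type replicate 2, was also that of the summed root markers. It was the reverse of that of the summed leaf markers. The libraries also lay in this order along the leading principal component. The root sum rested on LSI1 and OsHKT2;1, and the leaf sum mainly on LHCB4 and LHCB5. The reference table could not check the identifiers of LHCB4 and LHCB5. Of the other leaf markers, PSBS1 was lowest in wild type replicate 1, at 191 FPKM. RBCS was lowest in modd-labelled replicate 2, at 370 FPKM. The part of tissue makeup in the OsCESA2 value was not tested. In RNA from whole shoots, fewer cells of a type and less RNA per cell cannot be told apart.

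The 3 secondary wall genes had the lowest means over the 4 libraries, each with overlapping groups, although in wild type replicate 2 OsCESA2, at 34.6 FPKM, lay below OsCESA4. OsCESA4 (LOC_Os01g54620) was at 38.1 and 43.2 FPKM in the modd-labelled libraries and at 41.1 and 37.5 FPKM in the wild type. OsCESA7 (LOC_Os10g32980) was at 28.5 and 31.0 FPKM against 31.0 and 28.5 FPKM, nearly the same pair of values in reverse order. OsCESA9 (LOC_Os09g25490) was at 26.8 and 33.2 FPKM in the modd-labelled libraries and at 29.9 and 29.1 FPKM in the wild type. In all 3 genes the groups overlapped, and modd-labelled replicate 1 lay below replicate 2. The coefficient of variation over the 4 libraries was 6.65% for OsCESA4, 4.85% for OsCESA7 and 9.01% for OsCESA9, beside 7.52% for OsCESA3, 9% for OsCESA8, 12.1% for OsCESA5, 15.6% for OsCESA6 and 17.4% for both OsCESA1 and OsCESA2.

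The 3 proteins work together in the secondary wall complex, and the proportions of their transcripts were as follows. OsCESA4 was at 1.34 and 1.39 times the FPKM of OsCESA7 in the modd-labelled libraries and at 1.33 and 1.32 times in the wild type. OsCESA9 was at 0.94 and 1.07 times the FPKM of OsCESA7 in the modd-labelled libraries and at 0.964 and 1.02 times in the wild type. The counting error of a single value of OsCESA7 or OsCESA9, from 534 to 667 reads, was 3.87 to 4.33%. The log2 fold changes were 0.01 ± 0.11 (SE) for OsCESA4, -0.04 ± 0.105 for OsCESA7 and -0.02 ± 0.125 for OsCESA9, and their edgeR adjusted p were 0.984, 0.872 and 0.961. As fold changes, the 95% intervals ran from 0.847 to 1.19 for OsCESA4, from 0.826 to 1.14 for OsCESA7 and from 0.815 to 1.2 for OsCESA9. These intervals do not show that the levels were equal. They bound a difference between these groups of libraries in this fit, and may not cover variation between plants.

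**Figure D2:**
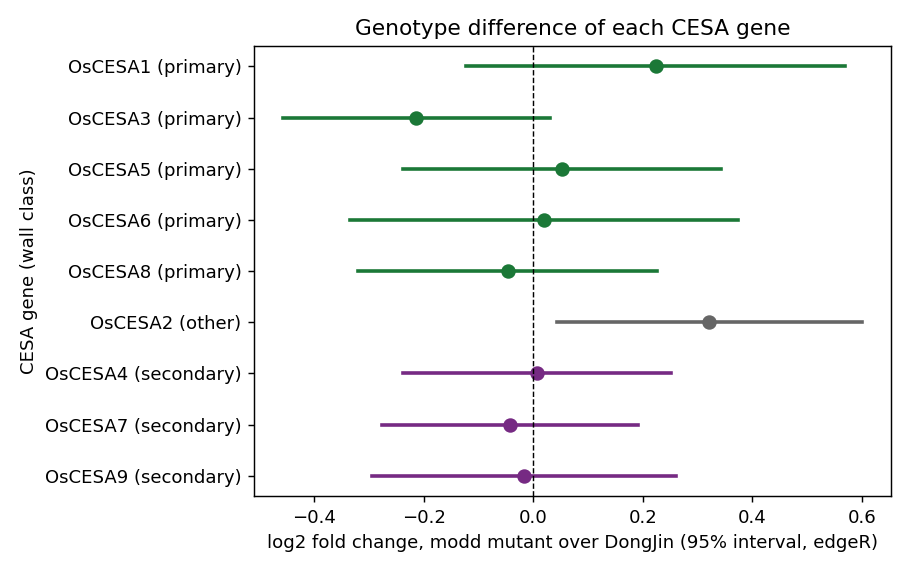
Log2 fold change of each CESA gene, modd-labelled libraries over DongJin (horizontal axis), with points for the edgeR estimate and bars for its 95% interval, coloured by wall class. The interval holds 0 for 8 of the 9 genes, and that of OsCESA2 runs from 0.04 to 0.60.

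Of the 9 CESA genes, 0 were called by edgeR at an adjusted p under 0.05, against 162 of 19365 tested genes, or 0.837%. At an unadjusted p under 0.05 edgeR gave 1 of 9. DESeq2 also called 0 of the 9, with 1 at an unadjusted p under 0.05, where over all 19365 genes it called 350 and had 1526 at an unadjusted p under 0.05. With limma, the 0 called among the 9 says nothing about them, since it called 0 of 20480 genes. The groups did not overlap in FPKM for 2 of the 9, OsCESA2 and OsCESA3, a smaller share than the 49.7% of all tested genes. The median log2 fold change was 0.01 over the family and 0.00 over all tested genes. Without wild type replicate 1, OsCESA1 and OsCESA2 passed with log2 fold changes of 0.48 and 0.50 (edgeR adjusted p = 0.0101 and 0.00379). In that fit, which leaves wild type replicate 2 alone in its group and assumes that it varies as the other group does, 12.4% of all tested genes passed. Without wild type replicate 2 the value for OsCESA1 was 0.01 (edgeR adjusted p = 0.991) and that for OsCESA2 was 0.16 (0.655).

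The balance of secondary to primary wall transcripts differed less between the groups than between libraries. Summed over the 3 secondary wall genes, the level was 93.3 and 107 FPKM in the modd-labelled libraries and 102 and 95.1 FPKM in the wild type. Summed over the 5 primary wall genes it was 448 and 482 FPKM in the modd-labelled libraries and 501 and 405 FPKM in the wild type. The secondary wall genes made up 15.7 and 16.8% of the summed FPKM of the family in the modd-labelled libraries and 15.7 and 17.8% in the wild type. The log2 ratio of the secondary to the primary sum was -2.22 ± 0.0686 (SD, n = 2) in the modd-labelled libraries and -2.19 ± 0.144 in the wild type, a difference of -0.02 where the pooled SD within groups was 0.113.

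The wild type replicates differed from each other in 4 of the 5 primary wall genes and in OsCESA2 by more than in the secondary wall genes. On the log2 CPM scale (reads scaled to library size after TMM normalisation), wild type replicate 2 was below wild type replicate 1 by differences of -0.47 in OsCESA1, -0.39 in OsCESA6, -0.35 in OsCESA5, -0.34 in OsCESA2 and -0.23 in OsCESA8. The same difference was 0.03 in OsCESA3, -0.07 in OsCESA4, -0.06 in OsCESA7 and 0.02 in OsCESA9. The modd-labelled libraries differed most in OsCESA6 and OsCESA9, where replicate 2 was above replicate 1 by 0.34 in each. OsCESA3 thus stood apart from the other primary wall genes in its course over the libraries. In the wild type its level did not fall with theirs in replicate 2.

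**Figure D3:**
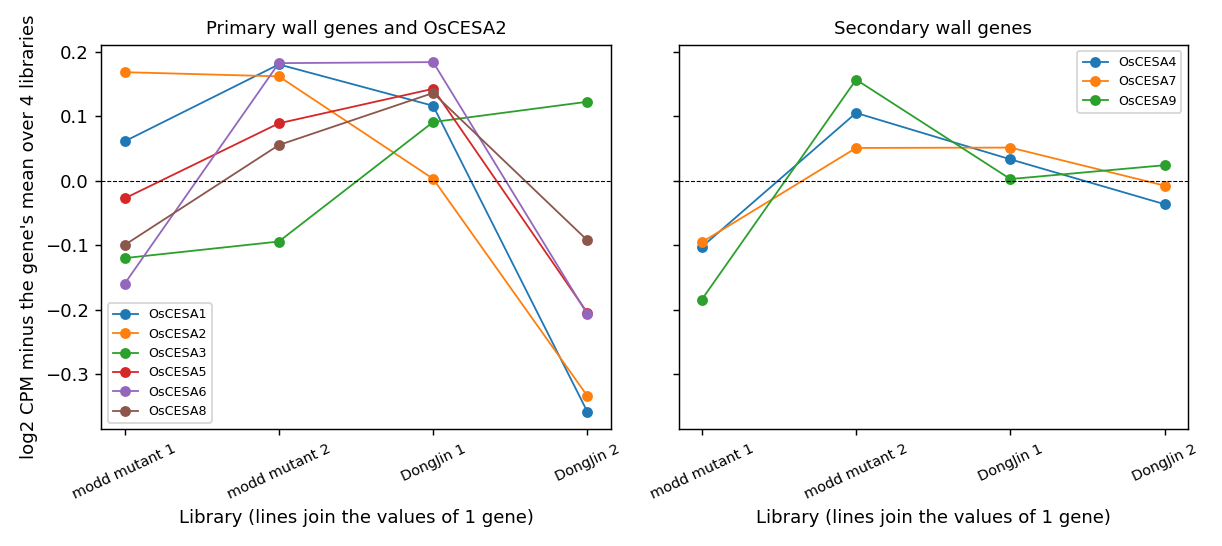
Log2 CPM of each CESA gene minus its own mean over the 4 libraries (vertical axis), by library, with the primary wall genes and OsCESA2 on the left and the secondary wall genes on the right; lines join values of a gene and show no order in time. In wild type replicate 2 OsCESA1 lies at -0.36 and OsCESA2 at -0.33 while OsCESA3 lies at 0.12, and the 3 secondary wall genes stay between -0.04 and 0.02.

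Reads were assigned to single CESA genes to differing degrees. The expected counts of OsCESA1 and OsCESA4 were whole numbers in all 4 libraries, to within 0.005 of a read, and those of OsCESA2, OsCESA6 and OsCESA8 in 3 of 4. The counts of OsCESA3, OsCESA5, OsCESA7 and OsCESA9 held fractions in all 4, which RSEM gives where a read may come from more than 1 source, so part of these values rests on how shared reads were split. Of the remaining CESA loci, OsCESA10 was listed in none of the 4 libraries, and OsCESA11 was at 0.22 to 0.65 FPKM and under the count minimum.

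Wall genes outside the family were listed by role, and 57 of 75 were tested. Of these 57, edgeR called 0, with 12 (21.1%) at an unadjusted p under 0.05, beside 16.8% of all tested genes. DESeq2 called 0, with 5 at an unadjusted p under 0.05, beside 1526 of all 19365 genes. At least OsMYB58/63, OsSWN2, SUS7, OsEXPA2 and OsEXPA5 had no adjusted p in DESeq2, so it could not call them. With limma on log2(FPKM + 1), which called no gene at all, 9 of the 57 had an unadjusted p under 0.05, beside 3094 of 20480. The median log2 fold change of the 57 was 0.06, and the groups did not overlap for 54.4%, near the 49.7% of all tested genes. All 8 genes of cellulose assembly were tested. OsCTL1 (LOC_Os09g32080), a chitinase-like protein needed for normal cellulose content, was at 32.6 and 31.6 FPKM in the modd-labelled libraries and at 28.8 and 18.4 FPKM in the wild type (log2 fold change 0.41, edgeR adjusted p = 0.279). Wild type replicate 2 was the low library for this gene too, and the value was 0.73 without wild type replicate 1 (edgeR adjusted p = 0.000802) and 0.15 without wild type replicate 2 (0.775). OsGLU1 (LOC_Os03g21210), a membrane-bound endoglucanase of the KORRIGAN type that acts in cellulose synthesis, was at 45.4 and 51.5 FPKM against 65.9 and 51.5 FPKM (log2 fold change -0.32, edgeR adjusted p = 0.25). Its value was -0.45 without wild type replicate 2 (edgeR adjusted p = 0.02), in a fit that called 538 of 19365 genes, and -0.16 without wild type replicate 1 (0.441).

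Of 9 listed transcription factors of the secondary wall programme, 8 were tested, and 2 are named as those with the largest log2 fold changes. Their names rest on locus identifiers that the reference table could not check. Both were low; others of the list were not, and OsKNAT7 (named after its values were seen) was at 51.4 to 69.9 FPKM. OsMYB58/63 (LOC_Os04g50770), a MYB activator of lignin genes, was at 2.04 and 2.68 FPKM in the modd-labelled libraries and at 0.97 and 0.74 FPKM in the wild type. Its groups did not overlap, and its log2 fold change of 1.41 ± 0.405 (SE) had an edgeR adjusted p of 0.126. OsSWN2 (LOC_Os08g02300), a NAC master switch of secondary wall formation, was at 2.74 and 3.51 FPKM against 2.66 and 1.31 FPKM (log2 fold change 0.62, edgeR adjusted p = 0.411). Its value was 1.17 without wild type replicate 1 (edgeR adjusted p = 0.0593) and 0.23 without wild type replicate 2 (0.881). The secondary wall CESA genes had log2 fold changes from -0.04 to 0.01 in the same libraries. A link between these factors and the CESA genes was not tested.

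The other polymers of the secondary wall gave small values. In the xylan list, with 4 of 4 tested, OsIRX10, a xylan glycosyltransferase, was at 26.1 and 27.2 FPKM in the modd-labelled libraries and at 28.9 and 29.4 FPKM in the wild type (log2 fold change -0.17, edgeR adjusted p = 0.505). For OsIRX9L, of another xylan glycosyltransferase family, the log2 fold change was 0.13 (edgeR adjusted p = 0.578). In the lignin list the 4 tested genes all lay below 0 on the log2 scale (median log2 fold change -0.08). Its largest was that of Os4CL3, a 4-coumarate:CoA ligase, at -0.15 (edgeR adjusted p = 0.561), and that of OsCOMT, a methyltransferase, was -0.09 (edgeR adjusted p = 0.699).

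Sucrose synthase cleaves sucrose to UDP-glucose, the substrate of cellulose synthase, and 6 of its 7 genes were tested. SUS1 (LOC_Os03g28330) was the most abundant of them, at 548 and 694 FPKM in the modd-labelled libraries and at 598 and 445 FPKM in the wild type, with overlapping groups (log2 fold change 0.21, edgeR adjusted p = 0.568). SUS7 (LOC_Os04g17650), near the lower end, was at 1.12 and 0.96 FPKM against 1.62 and 2.06 FPKM (log2 fold change -0.83, edgeR adjusted p = 0.257).

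The cellulose synthase-like genes, relatives of CESA that make other wall glucans and mannans, numbered 34, of which 30 were listed in a library and 21 tested. Of the 21, 11 had a log2 fold change below 0 and 10 above 0, with a median of -0.07, and 0 were called. OsCSLD2 (LOC_Os06g02180) is named after its values were seen, for the lowest adjusted p of the list. It was at 18.35 and 16.0 FPKM in the modd-labelled libraries and at 22.0 and 24.0 FPKM in the wild type. Its log2 fold change was -0.47 (edgeR adjusted p = 0.0935). OsCSLA11 (LOC_Os08g33740), of the mannan synthase group, was at 11.1 and 10.0 FPKM in the modd-labelled libraries and at 7.97 and 5.27 FPKM in the wild type (log2 fold change 0.63, edgeR adjusted p = 0.152). Its value was 0.93 without wild type replicate 1 (edgeR adjusted p = 0.0025) and 0.39 without wild type replicate 2 (0.419). OsCSLE1 (LOC_Os09g30120) was at 69.5 and 52.0 FPKM against 45.0 and 34.3 FPKM, and its log2 fold change of 0.57 ± 0.155 (SE) had an edgeR adjusted p of 0.118. With a library left out, that value was 0.75 without wild type replicate 1 and 0.76 without modd-labelled replicate 2. It was 0.36 without modd-labelled replicate 1 and 0.42 without wild type replicate 2. With all 4 libraries it passed without the count filter (0.57, edgeR adjusted p = 0.0436) and with the replicate block (0.57, 0.00769). Those fits called 764 and 870 genes in all, against 162 in the main fit. The OsCSLE1 value did not pass with DESeq2 (0.57, adjusted p = 0.0799), with other scalings or with a non-robust fit. With limma it could not pass, since no gene did.

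Expansins loosen the primary wall of growing cells, and 6 of 7 listed genes were tested. Their median log2 fold change was 0.40, with 5 values above 0, and the groups stood apart in all 6, beside the 49.7% of all tested genes. Of the 6, 0 were called. The list was chosen with earlier results of these data known, so these counts do not speak for expansins as a class. The largest values were 0.59 for OsEXPA2 and 0.48 for OsEXPA5, with edgeR adjusted p of 0.507 and 0.335. OsEXPA10, named after its values were seen for the lowest adjusted p of the list, had 0.48 and 0.108. In the same libraries the median log2 fold change of the leaf markers was -0.37, and the 2 tested root markers were at 0.22 and 0.78; their part in the expansin values was not tested.

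**Figure D4:**
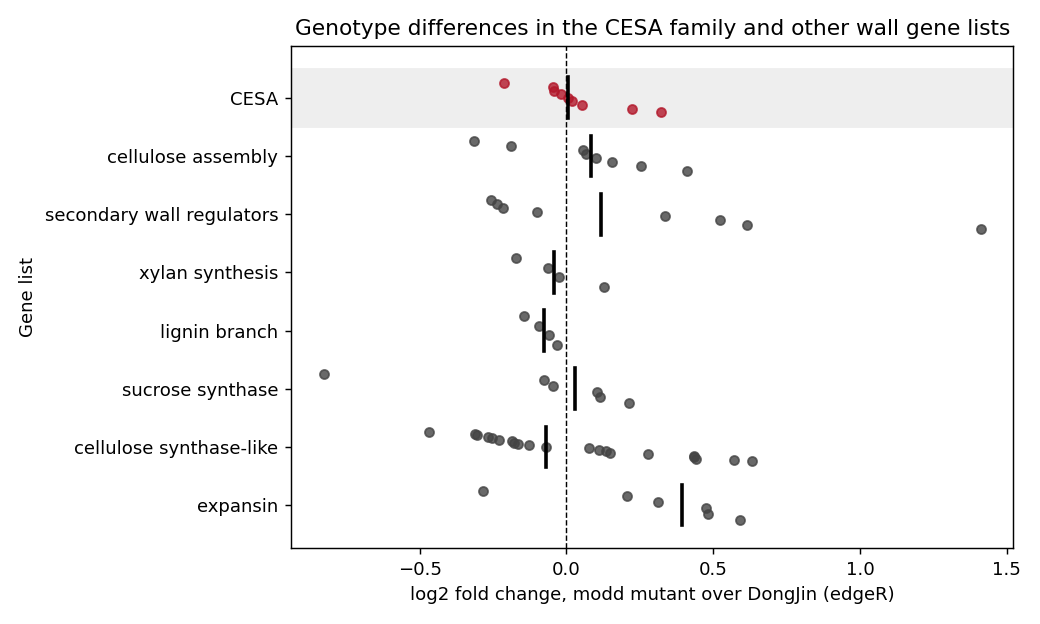
Log2 fold change, modd-labelled libraries over DongJin (horizontal axis), of each tested gene in the CESA family (shaded row) and in 7 other lists of wall genes; points are genes, spread vertically only for legibility, and bars are medians. The CESA genes lie between -0.21 and 0.32, and none of the points passed the edgeR threshold.

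Among the 57 tested wall genes, those with a course over the 4 libraries most like the mean of the 3 secondary wall CESA genes were OsCAD2, an alcohol dehydrogenase of lignin synthesis, SUS2 and OsCOMT. Their root-mean-square differences from it, in log2 CPM after centring each gene on its mean over 4 libraries, were 0.0501, 0.054 and 0.0541, where the median of the 57 was 0.173. The nearest to the mean of the 5 primary wall CESA genes were OsBC1L4, a COBRA-like protein, SUS6 and SUS5, at 0.0452, 0.0475 and 0.0522. OsCESA3 was the farthest of its own 5 members, at 0.165. These are descriptions over 4 libraries, and genes that vary little over them all lie near each other by this measure.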

How the data were processed

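Each of the 4 libraries had 1 gene table, and groups and replicate numbers came from the sample titles. BWA, Bowtie and RSEM are listed in the submitters' processing notes with neither version nor role. No source used here names the genome build or annotation. Expected counts were deposited by the authors without normalization and, per the file headers, estimate the reads of each gene. FPKM values, also deposited, are scaled for transcript length and reads assigned, per the file headers. Tables list only genes above 0, and a missing row was counted as 0. Replicates were not duplicates: the chi-square per degree of freedom within groups was 2.64 (modd mutant) and 4.76 (DongJin).

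Rounded expected counts went into edgeR 4.0.16 under R 4.3.3 (robust quasi-likelihood fit, TMM, filterByExpr with a count minimum of 10 and a total of 15, no covariate). The Benjamini-Hochberg adjustment ran over all 19365 tested genes, with a threshold of 0.05. SEs are the absolute log2 fold change over the square root of F, and 95% intervals use the moderated degrees of freedom. The fit was tested on simulated data. Counting errors are 1 over the square root of the reads. They cover counting error only. No p was computed over lists or ratios. Alternatives used DESeq2 1.42.0 and limma 3.58.1, other scalings and filters, a replicate block and each library left out.

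Members and lists were chosen with earlier results of these data known. Besides the members, each list's called genes are named or else the 2 largest changes at a mean of at least 1 FPKM, and the 3 genes nearest each wall class. The locus identifiers of the other lists were written from general knowledge. Of 96 listed symbols, 66 were in the reference table, all on the chromosome of their identifier. The other 30, among them all 9 secondary wall regulators, OsCTL1, OsCSLA11, OsBC1L4, OsIRX10 and leaf markers LHCB4, LHCB5 and PSBS1, could not be checked. That table was used for names only.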

Additional observations from a re-analysis of the deposited data

How the results depend on the processing

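The count of CESA genes called was 0 in edgeR and in all alternatives with 4 libraries, and 0 to 2 with a library left out. With a library left out, sign changes occurred in 6 of the 9 members, whose log2 fold changes were at most 0.05 in size. Their ranges were -0.10 to 0.11 for OsCESA4, -0.11 to 0.24 for OsCESA5, -0.16 to 0.23 for OsCESA6, -0.12 to 0.029 for OsCESA7, -0.16 to 0.072 for OsCESA8 and -0.20 to 0.14 for OsCESA9. OsCESA9 also turned to 0.016 with limma on log2(FPKM + 1) and 0.017 on log2(FPKM + 0.1); the cause was not tested. OsCESA1, OsCESA2 and OsCESA3 kept their sign in all 12 alternatives. The difference in the secondary-to-primary log2 ratio ran from -0.13 to 0.08 with a library left out and from -0.05 to -0.03 under the other alternatives, within the pooled SD of the main value.

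Over all genes, the calls numbered 350 with DESeq2, 102 with upper-quartile factors, 764 when no filter was applied, 0 and 0 by limma on log2(FPKM + 1) and log2(FPKM + 0.1) (3094 and 3071 at an unadjusted p under 0.05), and 85 to 2394 with a library left out. Of the 57 other wall genes, 3 were called without the count filter, beside 764 of the 28491 genes in that fit. Their count also changed with a library left out. SUS2, SUS5, SUS6 and OsBC1L4 changed sign with a library left out, with ranges of -0.093 to 0.0074, -0.019 to 0.26, -0.20 to 0.061 and -0.10 to 0.24. The MODD call did not hold with limma (0.94 and 0.97, adjusted p = 0.137 and 0.151). A replicate block raised the calls to 870 over all genes and 2 among the other wall genes and left the members at 0. The titles' numbers are not said to pair samples, and same-numbered libraries' deviations had a correlation of 0.0126 across genes. Counting errors of single CESA values were 1.77 to 4.33%.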
